A study of Mus musculus with 4 samples.

Results

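S100 genes encode small calcium-binding proteins built from a pair of EF-hand loops, most of which work as dimers that change shape when calcium enters the cell and then grip a partner protein. Calprotectin, the dimer of S100a8 and S100a9, is the best known of them in tumour neutrophils; the present account is of the other members, S100a1, S100a3, S100a4, S100a6, S100a10, S100a11, S100a13, S100a14 and S100a16. They are the 9 rows with these symbols among the 4099 gene rows analysed, taken over the cell type names that the authors gave each cell barcode. The study sorted live CD45+ cells, that is leukocytes, from tumours of 4T1, a mouse breast cancer cell line, grown in BALB/c mice, and profiled them by droplet single-cell RNA sequencing. One group of 2 samples came from wild-type 4T1 tumours (CON) and another group of 2 samples came from Mif-depleted 4T1 tumours (sgMif), with 3 tumours combined in each sample. Mif encodes macrophage migration inhibitory factor. The sources used here do not give the age or sex of the mice, or whether the depleted line was a single clone.

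Several of these proteins have well described partners. S100a10 binds annexin A2 and carries membrane proteins to the cell surface, S100a4 (metastasin) binds non-muscle myosin and is known for motile and metastatic cells, S100a6 (calcyclin) binds the calcyclin-binding protein Cacybp and several annexins, and S100a11 binds annexin A1. S100a13 takes part in the release of Fgf1 and of interleukin 1 alpha, which leave the cell without a signal peptide. S100a1 is best known from heart and skeletal muscle, S100a3 from hair cuticle, S100a14 from epithelia, and S100a16 from a broad range of tissues that includes fat.

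All 9 genes lie on mouse chromosome 3 in a pair of clusters. On GRCm38, S100a4 (ENSMUSG00000001020.8) spans chr3:90603771-90606045 on the plus strand, and S100a6 (ENSMUSG00000001025.8) follows 6836 bases further on at chr3:90612882-90624181, with S100a5, not analysed here, between them. S100a3 lies just before S100a4, and S100a14 just before S100a16. S100a11 (ENSMUSG00000027907.4, chr3:93520488-93526287) and S100a10 (ENSMUSG00000041959.14, chr3:93555080-93564643) stand 28792 bases apart in the other cluster, 2896306 bases beyond S100a6. S100a1 (ENSMUSG00000044080.9, chr3:90511034-90514392, minus strand) and S100a13 (ENSMUSG00000042312.9, chr3:90514435-90524581, plus strand) start back to back, with 42 bases between them.

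S100a6 and S100a11 had the most similar levels over the cell types although they lie in different clusters, and S100a4, in the same cluster as S100a6, had a different profile, so the 250 bases before the start sites of these 3 genes are printed here. They are RefSeq windows on GRCm38.p6, all on the plus strand, at chr3:90603520-90603769 for S100a4, chr3:90612644-90612893 for S100a6 and chr3:93520246-93520495 for S100a11. Capitals mark matches to the motifs searched.
S100a4: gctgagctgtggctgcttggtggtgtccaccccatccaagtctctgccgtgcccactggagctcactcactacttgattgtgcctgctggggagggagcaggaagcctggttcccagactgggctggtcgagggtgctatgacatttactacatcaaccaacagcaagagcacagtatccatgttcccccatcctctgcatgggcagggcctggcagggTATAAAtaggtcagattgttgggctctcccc
S100a6: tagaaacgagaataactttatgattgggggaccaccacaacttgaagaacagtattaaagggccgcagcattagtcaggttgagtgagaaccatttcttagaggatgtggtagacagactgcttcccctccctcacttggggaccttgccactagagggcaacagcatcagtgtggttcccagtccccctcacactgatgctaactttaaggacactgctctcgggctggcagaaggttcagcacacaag
S100a11: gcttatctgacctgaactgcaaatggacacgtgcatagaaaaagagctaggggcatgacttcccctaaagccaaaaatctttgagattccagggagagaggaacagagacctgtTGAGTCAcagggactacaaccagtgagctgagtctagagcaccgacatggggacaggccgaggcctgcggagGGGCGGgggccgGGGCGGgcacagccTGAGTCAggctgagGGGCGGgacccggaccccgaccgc

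The motifs were searched on both strands of windows reaching 250 bases before and 50 bases after each start site. They were TATAAA (the box near many start sites, in 13.6% of 32851 windows of all genes), TGANTCA (AP-1, 7.81%), TTGCNNAA (C/EBP, 10.8%), GGGCGG (Sp1, 35.7%) and GAGGAAGT (PU.1, 3.20%). The S100a4 window held TATAAA from base -31 and, past the start site, the letters of GAGGAAGT on the opposite strand from base 17. In the S100a11 window, TGAGTCA occurred from bases -136 and -38 and GGGCGG from bases -64, -52 and -24. None of the 5 motifs matched in the S100a6 window, nor in those of S100a1 and S100a13, which share 204 bases. A match is a stretch of letters and not a measured binding site. Of the 9 genes, 7 had a window, 11 windows in all; S100a10 and S100a14 had none.

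The deposited counts cover part of the data. The annotation names 45781 barcodes in 23 types and carries suffixes 1 to 4. Each suffix is treated here as 1 library, although no label says so. The count table holds all 13162 barcodes of suffix 1 and 3221 of the 11961 barcodes of suffix 2. Nothing in the labels ties a suffix to a sample, so suffixes 1 and 2 are taken as libraries of unknown group. No comparison of CON with sgMif could be made. The counts came to 29567302 unique molecular identifiers (UMIs, counted RNA molecules) in suffix 1, with a median of 1224.5 per cell, and 8578852 in suffix 2, with a median of 1712. Any 2 suffixes shared 24 to 42 barcode sequences, and 12 were shared among the counted cells of suffixes 1 and 2. Levels are UMIs of a gene summed over the cells of a name per 10000 counted UMIs, with exact 95% Poisson intervals, which cover counting error only; suffix 2 is given beside suffix 1 for the main results. In a whole name, fewer cells with the RNA and less RNA in each cell cannot be told apart from the summed level. The names are the authors', read here in their common sense.

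Among the S100 genes, 6 had many UMIs and 3 had few. In suffix 1 the cells held 531028 UMIs of S100a6, 249983 of S100a11, 97262 of S100a4, 76028 of S100a10, 12096 of S100a13 and 4720 of S100a1. S100a16 had 763 UMIs, S100a14 had 128 and S100a3 had 94. A name was called higher or lower than all other cells of its library where the exact 95% interval of the ratio lay wholly past a 2-fold ratio with at least 50 UMIs over both sides. Over 22 names and 9 genes, 29 of 198 ratios were higher, 56 lower and 113 neither. Neutrophils made up much of the other cells: with them left out, 16 ratios were higher, and with S100a8 and S100a9 out of the totals 19 were; in suffix 2, 15 were. The calls of S100a4 in cDC1_Clec9a and pDC, of S100a10 in CD4_Treg, Mono_Ly6c2 and epithelial cells, of S100a6 and S100a14 in epithelial cells, of S100a16 in epithelial cells and fibroblasts, and of S100a6 and S100a11 in neutrophils were made under each of these alternatives that could be computed. Over all genes, the share called per name ran from 1.45% to 16.9% higher (median 5.85%) and from 1.05% to 73.5% lower (median 5.89%).

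S100a4 was most abundant in 2 groups named as dendritic cells and scarce in neutrophils and naive T cells. Its level was 374 (95% interval 370 to 378) in cDC1_Clec9a cells, 186 in pDC, 111 in Mono_Nr4a1 and 78.9 in both cDC1_Ccl22 and Mono_Ly6c2 in suffix 1. In suffix 2 the same names stood at 422, 265, 116, 134 and 106, so cDC1_Clec9a and pDC led in both libraries. The order below them differed: in suffix 2 cDC1_Ccl22, CD4_Th at 123, Mono_Nr4a1, CD4_Treg at 111 and Mono_Ly6c2 followed. Lowest in suffix 1 were neutrophils at 1.77 (1.69 to 1.85), naive CD4 T cells (CD4_Tn) at 2.89, central memory CD4 T cells (CD4_Tcm) at 3.93, B cells at 4.16 and fibroblasts at 5.41. In that order the intervals of CD4_Tcm overlapped those of B cells and CD4_Tn, while those of CD4_Tn and neutrophils did not meet. In suffix 2 CD4_Tn was lowest at 1.98 on 7 UMIs, then fibroblasts at 2.15 and neutrophils at 2.79. By the 2-fold rule S100a4 was higher in 6 names and lower in 8. In cDC1_Clec9a cells 4 of 9 members were higher (10.4% of all genes) and 3 lower (10.7%), with S100a4 at a log2 ratio of 4.01 (3.99 to 4.03). The 4 were S100a3, S100a4, S100a10 and S100a1, and with neutrophils left out of the other cells S100a10 at 0.88 and S100a1 at 0.75 were no longer called. In pDC 3 were higher (5.98%), S100a4 at 2.75, S100a3 at 2.71 and S100a10 at 1.39, and 3 lower (2.99%), of which S100a6 and S100a11 turned to 0.28 and 0.14 in UMIs per cell. Mono_Ly6c2 had 2 higher (2.76%), S100a10 at 1.73 and S100a4 at 1.32. The latter was at 0.29 in suffix 2, where S100a11, at a level of 120, was called in its place. On the low side, 6 members were lower in B cells (14.7%) and 5 in CD4_Tn (9.68%).

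**Figure D1:**
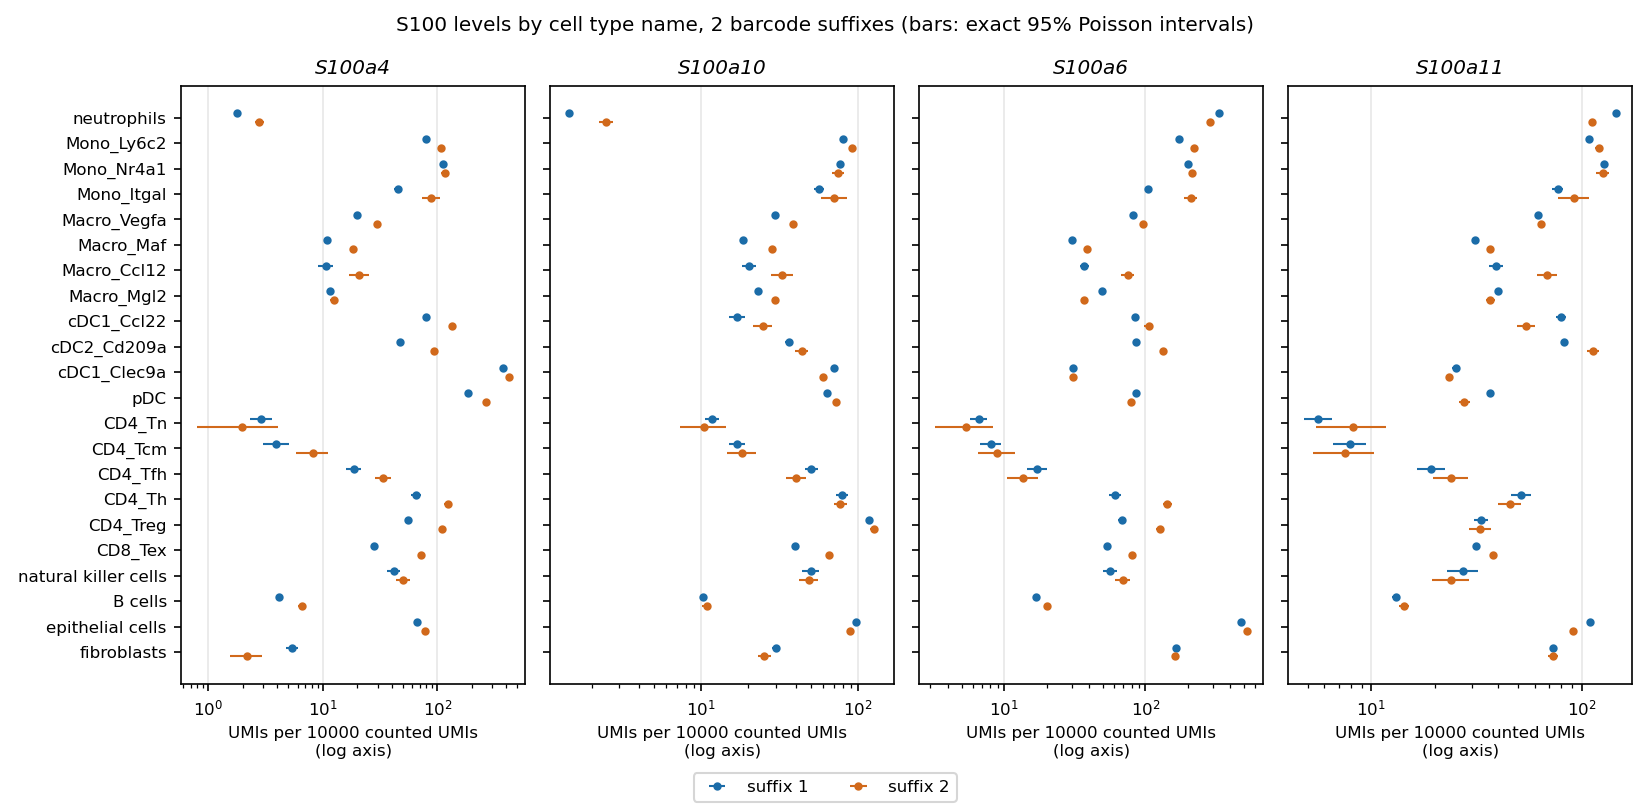
Level of S100a4, S100a10, S100a6 and S100a11 (UMIs per 10000 counted UMIs, log axis) in 22 cell type names, with suffix 1 in blue, suffix 2 in orange and bars for exact 95% Poisson intervals. S100a4 runs from 1.77 in neutrophils to 374 in cDC1_Clec9a cells of suffix 1, and S100a10 is likewise lowest in neutrophils, where S100a6 and S100a11 are among their highest.

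Within the cDC1_Clec9a name, cells with and without Ctsk differed in S100a4. Ctsk encodes the bone-resorbing protease cathepsin K of osteoclasts. The name goes against its leading genes: of the lists of markers, the osteoclast-like list (5 of 8 genes measured) was highest in this name, at 886 per 10000 in suffix 1 and 1204 in suffix 2, with pDC next at 223 in suffix 1. After thinning each cell to 500 UMIs, 117 cells of suffix 1 with 5 or more Ctsk UMIs had S100a4 at 411 (407 to 416), and 28 cells with none had 5.00 (3.56 to 6.84). The 5 cells with 1 to 4 Ctsk UMIs had 450 (424 to 478), above the cells with more. S100a10 went with S100a4, at 75.1 in the cells with 5 or more, 126 in those 5 cells and 7.83 in the cells with none, and S100a11 went the other way, at 20.0, 23.9 and 73.8. Suffix 2 repeated both contrasts, with S100a4 at 433 in 146 cells against 13.2 in 8 cells, and S100a11 at 20.8 against 123. The cells without Ctsk were shallower, with a median of 2621 UMIs against 6130, and the split was chosen after the values were seen. Cells named pDC showed a smaller S100a4 contrast of the same direction, at 269 in 41 cells with 5 or more Ctsk UMIs and 99.7 in 100 cells with none. S100a10 differed little between these pDC cells, at 62.6 and 57.6, and in suffix 2 at 65.3 and 72.3.

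By summed level, S100a10 was highest in regulatory T cells (CD4_Treg), the CD4 cells that restrain other lymphocytes. Its level there was 117 (113 to 122) in suffix 1 and 127 in suffix 2. Those levels are per counted UMI. Per cell, CD4_Treg of suffix 1 had 10.8 S100a10 UMIs, fewer than pDC at 36.4, cDC1_Clec9a at 34.9, epithelial cells at 23.8 and 6 other names. Epithelial cells followed at 97.4 and 88.5, then Mono_Ly6c2 at 80.5 and 91.3, helper CD4 T cells (CD4_Th) at 79.2 and 77.0, and Mono_Nr4a1 at 77.1 and 74.6. The intervals of CD4_Treg and epithelial cells did not meet in suffix 1, and those of CD4_Th overlapped both monocyte names. The median level per cell, in cells of 500 or more UMIs, did not give the same order in suffix 1. It was 94.1 in CD4_Treg and 98.7 in epithelial cells there, and 96.6 and 80.9 in suffix 2. Neutrophils were lowest, at 1.44 (1.37 to 1.52) in suffix 1 and 2.47 in suffix 2. B cells were next in suffix 1 at 10.3. In suffix 2 CD4_Tn at 10.5 and B cells at 10.9 were next, with overlapping intervals. S100a10 was higher in 8 names and lower in 2. CD4_Treg had 2 members lower, S100a6 and S100a11 (5.86% of all genes), and 2 higher (9.48%), S100a10 at log2 2.23 (2.17 to 2.29) and S100a13 at 1.44, and CD4_Th also had 2 (5.72%), S100a10 at 1.63 and S100a13 at 1.52. With neutrophils left out of the other cells, S100a10 in CD4_Treg was called, at 1.60, and the other 3 ratios, at 1.00 to 1.22, were not. In UMIs per cell the S100a10 ratio of CD4_Treg was 0.93 and not called. As a share of cells after thinning to 500 UMIs, 94.1% of CD4_Treg cells held an S100a10 UMI in suffix 1 and 98.6% in suffix 2. Of neutrophils, 7.06% and 11.3% did. S100a8 and S100a9 made up 58.5% of neutrophil UMIs in suffix 1, so a thinned neutrophil holds fewer UMIs of other genes. What part of the neutrophil share is free RNA was not tested.

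S100a6 and S100a11 were high in neutrophils, the cells in which S100a4 and S100a10 were lowest in suffix 1. S100a6 stood at 475 (471 to 479) in epithelial cells, 333 (331 to 334) in neutrophils and 202 in Mono_Nr4a1 in suffix 1, and at 522, 286 and 214 in suffix 2. S100a11 stood at 145 in neutrophils, 128 in Mono_Nr4a1, 110 in epithelial cells and 108 in Mono_Ly6c2 in suffix 1. In suffix 2 its order changed, with 126 in Mono_Nr4a1, 120 in Mono_Ly6c2, 113 in cDC2_Cd209a and 112 in neutrophils. Both genes were lowest in CD4_Tn, at 6.60 and 5.61, and in CD4_Tcm, at 8.04 and 7.92; for S100a6 the intervals of these 2 names overlapped. In neutrophils S100a6 was higher than in all other cells by log2 1.86 and S100a11 by 1.56, 2 of 9 members where 2.59% of all genes were called higher. The other side holds little for the members: 6 of 9 were lower in neutrophils, where 73.5% of all genes were, with a median log2 ratio over all genes of -2.39. S100a4 at -4.84 and S100a10 at -4.78 lay below that median, and S100a13 at -1.07 turned to 0.14 with S100a8 and S100a9 out of the totals.

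The size of the neutrophil value depends on what it is divided by, because S100a8 and S100a9 made up 58.5% of the counted UMIs of neutrophils in suffix 1. With these 2 genes left out of the denominator, S100a6 rose to 801 in neutrophils, above 486 in epithelial cells, and S100a11 to 351, against 133 in Mono_Nr4a1. Per cell the order was the reverse for S100a6, with 62.9 UMIs in a neutrophil and 116 in an epithelial cell. For S100a11 the neutrophil held 27.5 UMIs per cell, the Mono_Nr4a1 cell 29.6 and the epithelial cell 26.8. S100a10 stayed lowest in neutrophils of suffix 1 both ways, at 3.48 without calprotectin and 0.273 UMIs per cell. S100a4 did not: at 4.27 and 0.335 UMIs per cell it lay above CD4_Tn, at 2.91 and 0.188.

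Against the monocytes named Mono_Nr4a1, neutrophils differed by less than 2-fold in S100a6 and S100a11 and had less of the 4 others with enough UMIs. In suffix 1, 4 of the 6 members with enough UMIs were lower in neutrophils (50.9% of all genes): S100a4 at log2 -5.97, S100a10 at -5.74, S100a1 at -3.73 and S100a13 at -2.09. S100a6 was at 0.72 (0.69 to 0.75) and S100a11 at 0.19 (0.15 to 0.22), neither past 2-fold, while the median of all genes was -1.50. Suffix 2 gave -5.38 and -4.92 for S100a4 and S100a10, and 0.42 and -0.17 for S100a6 and S100a11. These calls depend on the totals: with S100a8 and S100a9 left out of them in suffix 1, S100a6 at 1.92 and S100a11 at 1.39 were called higher in neutrophils and S100a13 at -0.89 was not called. Monocyte names differed by less: against Mono_Nr4a1, no member of Mono_Ly6c2 passed 2-fold (3.91% of all genes higher, 0.85% lower), and S100a4 was at log2 -0.50 (-0.55 to -0.44) and S100a10 at 0.06 (0.01 to 0.12).

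Among T cells the same 5 members were low in naive and central memory cells and high in regulatory cells. For each gene the level in CD4_Tn and then CD4_Treg of suffix 1 was 2.89 and 55.5 for S100a4, 6.60 and 68.0 for S100a6, 11.7 and 117 for S100a10, 5.61 and 33.1 for S100a11, and 3.18 and 10.9 for S100a13. All 5 were called higher in CD4_Treg, where 8.73% of all genes were, and the other 4 members had too few UMIs to compare. S100a4 differed by log2 4.27 (3.95 to 4.60), S100a6 by 3.36 (3.15 to 3.59), S100a10 by 3.32 (3.16 to 3.49), S100a11 by 2.56 (2.32 to 2.81) and S100a13 by 1.78 (1.43 to 2.14). The same 5 were called in suffix 2 (10.8% of all genes), at 5.80, 4.56, 3.61, 2.01 and 2.45, from 37 CD4_Tn and 82 CD4_Treg cells. CD4_Tcm lay near CD4_Tn: no member passed 2-fold (0.531% of all genes higher, 2.3% lower), and S100a10 was at log2 0.53 (0.30 to 0.76) and S100a4 at 0.44 (-0.05 to 0.93).

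Shares of cells drew the same line within the CD4 names. After thinning to 500 UMIs, an S100a4 UMI was found in 13.5% of CD4_Tn, 15.4% of CD4_Tcm, 30.2% of follicular helper (CD4_Tfh), 70.4% of CD4_Th and 61.6% of CD4_Treg cells in suffix 1. Suffix 2 gave 13.5%, 12.2%, 27.0%, 90.6% and 85.1%. The neutrophil share was 8.64% in suffix 1 and 15.7% in suffix 2. It is not at like depth with that of naive cells, because much of a thinned neutrophil is S100a8 and S100a9. The S100a4 level in CD4_Tfh was 18.5 and 33.8 in the 2 suffixes, between the naive and the helper cells. S100a13 was spread more evenly, in 14.8% of CD4_Tn, 36.2% of CD4_Treg and 59.5% of natural killer cells in suffix 1, with an interval for the 42 natural killer cells of 43.3% to 74.4%.

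**Figure D2:**
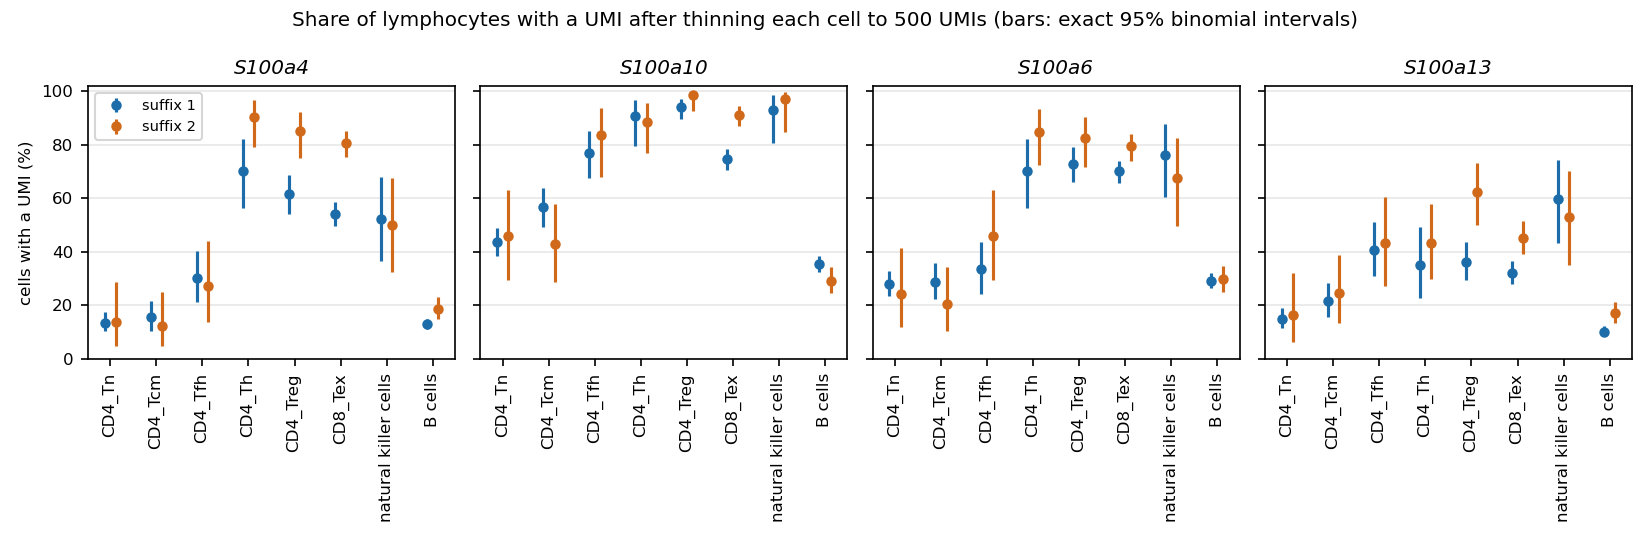
Share of cells (%) with at least 1 UMI of S100a4, S100a10, S100a6 or S100a13 in 8 lymphocyte names after each cell was thinned to 500 UMIs, with bars for exact 95% binomial intervals. S100a4 is found in 13.5% of CD4_Tn and 61.6% of CD4_Treg cells of suffix 1, and CD4_Tcm lies beside CD4_Tn.

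Cells named CD8_Tex, exhausted CD8 T cells, also stood above naive cells, but many of them held UMIs of the C1q complement genes. Called higher than in CD4_Tn were 5 members (17.1% of all genes), among them S100a4 at log2 3.28, S100a6 at 3.02, S100a11 at 2.48 and S100a10 at 1.76. The remaining one, S100a1 at 2.92, rested on a level of 1.76 that was 0.264 (0.0859 to 0.617) in the 106 of 527 cells without any UMI of the C1q complement genes, which macrophages make. In those 106 cells S100a4 was at 80.8 (76.8 to 85.0), S100a10 at 78.4, S100a6 at 79.0 and S100a13 at 10.7, whereas 253 cells with 5 or more C1q UMIs had 15.8, 25.1, 48.5 and 4.73. The S100a10 and S100a13 levels of the C1q-free cells lay within the intervals of all CD4_Th cells, and their S100a4 and S100a6 levels above them. The 18 CD4_Th cells without a C1q UMI had S100a4 at 43.0 and S100a6 at 45.0. In suffix 2 the S100a4 and S100a6 levels of C1q-free CD8_Tex cells were 97.4 and 87.9. These lay below the intervals of all CD4_Th cells, 114 to 132 and 134 to 154. The 26 C1q-free CD4_Th cells of suffix 2 had 140 and 161. The C1q UMIs were counted without thinning, and the C1q-free CD8_Tex cells were shallower, so the split also follows depth. S100a8 differed as well in suffix 1, at 33.4 in the C1q-free cells and 182 in those with 5 or more C1q UMIs. Which cells are mixtures was not tested, and this split was added after the data were seen.

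Macrophage names differed in S100a6 and less in the rest. S100a6 was at 81.7 in Macro_Vegfa, 49.2 in Macro_Mgl2, 37.1 in Macro_Ccl12 and 30.1 in Macro_Maf in suffix 1, and at 96.7 in Macro_Vegfa and 38.5 in Macro_Maf in suffix 2. Against Macro_Maf, Macro_Vegfa cells were called higher for S100a6 alone (1.1% of all genes), at log2 1.44 (1.41 to 1.48) and 1.33 in suffix 2. S100a11 at 0.99 (0.95 to 1.02) and S100a4 at 0.87 were inside 2-fold, and the interval of S100a1, at -0.08 (-0.21 to 0.06), spanned 0. With S100a8 and S100a9 out of the totals, S100a11 at 1.06 was called too. S100a8 and S100a9 also differed here: S100a8 was at 282 in Macro_Vegfa and 73.2 in Macro_Maf. If every S100a9 UMI in a cell outside the neutrophil name came with the neutrophils' own mixture of RNA, that mixture would hold 47.8% of the S100a6 of Macro_Vegfa and 36.0% of that of Macro_Maf. No member passed 2-fold between Macro_Ccl12 and Macro_Maf (1.41% of all genes higher, 0.161% lower) in suffix 1, and the S100a6 ratio was log2 0.30 there and 0.97 in suffix 2. Macro_Ccl12 cells were shallow, with a median of 423 UMIs against 3652, and in UMIs per cell all 6 comparable members were called lower in them, S100a6 at -1.28, where the median of all genes was -1.66.

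The same S100a9-based share, computed for every name, shows how much S100a6 and S100a11 could come with neutrophil RNA under that assumption. It came to 145% of the S100a6 of Macro_Mgl2, 67.2% of that of B cells, 61.6% of that of CD4_Tcm, 60.5% of that of CD4_Tn and 51.4% of that of pDC in suffix 1. For S100a11 it was 78.3% in Macro_Mgl2, 52.2% in pDC and 37.6% in B cells. In CD4_Treg it was 5.91% of S100a6 and 5.31% of S100a11, and in epithelial cells 2.44% of S100a6. In these names the S100a9-based share of S100a6 was lower in suffix 2. It was 101% in Macro_Mgl2, 35.5% in B cells, 22.7% in CD4_Tn, 16.8% in CD4_Tcm, 1.07% in CD4_Treg and 0.460% in epithelial cells. The same share taken from S100a8 was higher in some names, CD4_Tn of suffix 2 among them, so these values are not upper limits. The part that such RNA plays was not tested.

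The names cDC2_Cd209a and cDC1_Ccl22 were alike in S100a11 and S100a6 in suffix 1, whereas pDC had less S100a11, at 36.8. In suffix 1, S100a11 was at 82.8 in cDC2_Cd209a and 80.0 in cDC1_Ccl22, with overlapping intervals, and S100a6 at 86.4 and 85.1. Of the dendritic marker list only 2 of 10 genes were measured; cDC1_Ccl22 led it in both suffixes. S100a10 was the member that separated these names most, at 16.9 in cDC1_Ccl22 and 36.2 in cDC2_Cd209a, log2 -1.09 (-1.29 to -0.90), short of the 2-fold rule. No member was called between them (7.8% of all genes higher, 4.88% lower). In suffix 2 the S100a10 ratio was -0.82, and S100a11, level in suffix 1 at -0.05, was at -1.06 (-1.22 to -0.89).

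Epithelial cells and fibroblasts, which a CD45 sort should not hold, were the main sources of S100a14 and S100a16. The lists of markers set the fibroblast name apart, at 869 per 10000 against 84.7 in the next name in suffix 1. For the epithelial list the neutrophils were level, at 151 against 149, through Lcn2, which neutrophils also make (151 of Lcn2 alone), and the epithelial name led in suffix 2 at 211. S100a14 had 106 of its 128 UMIs in epithelial cells, a level of 0.871 in suffix 1 and 1.36 in suffix 2, and none in fibroblasts. S100a16 was at 7.24 (6.51 to 8.03) in fibroblasts and 3.06 (2.75 to 3.38) in epithelial cells, and at 6.73 and 2.99 in suffix 2. The next name, cDC1_Ccl22, was at 0.305 on 5 UMIs, and 11 of the 22 names had no S100a16 UMI. Epithelial cells had 6 of 9 members higher than all other cells (16.9% of all genes): S100a14 at log2 6.81, S100a16 at 4.47, S100a10 at 2.11, S100a6 at 1.51, S100a1 at 1.26 and S100a4 at 1.07. The last 2 were not called with S100a8 and S100a9 out of the totals or in suffix 2, where S100a4 turned to -0.17. The members' median log2 ratio in epithelial cells was 1.26, against 0.29 over all genes.

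Epithelial cells and fibroblasts parted widely at S100a4 and S100a14. S100a4 was at 66.1 in epithelial cells and 5.41 in fibroblasts in suffix 1, log2 3.61 (3.43 to 3.79), and at 78.3 and 2.15 in suffix 2, log2 5.18. Fibroblasts are often marked by S100a4 under the name fibroblast-specific protein, and here they ranked among the lowest 5 of 22 names in suffix 1. S100a10 was at log2 1.70 and S100a6 at 1.52, both called. S100a14 was also called, at log2 3.84 with the 0 UMIs of fibroblasts set to 3 counts. These made 4 members higher (7.13% of all genes) and 1 lower (11.3%), S100a16 at log2 -1.24 (-1.46 to -1.03). In suffix 2 S100a16 was at -1.17 (-1.53 to -0.80), which no longer passed the rule (10.2% of all genes did). S100a11 at 0.58 and S100a13 at -0.05 (-0.24 to 0.15; -0.51 in suffix 2) did not pass 2-fold.

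The shares of cells with S100a14 and S100a16 were small even in these names. After thinning to 500 UMIs, S100a14 was found in 4.96% of 343 epithelial cells and none of 104 fibroblasts in suffix 1 (exact 95% interval up to 3.48%). S100a16 was found in 22.1% of fibroblasts (14.6% to 31.3%) and 14.3% of epithelial cells (10.8% to 18.4%), and in 0.0585% of 5126 neutrophils. S100a6 was found in all 343 epithelial cells.

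**Figure D3:**
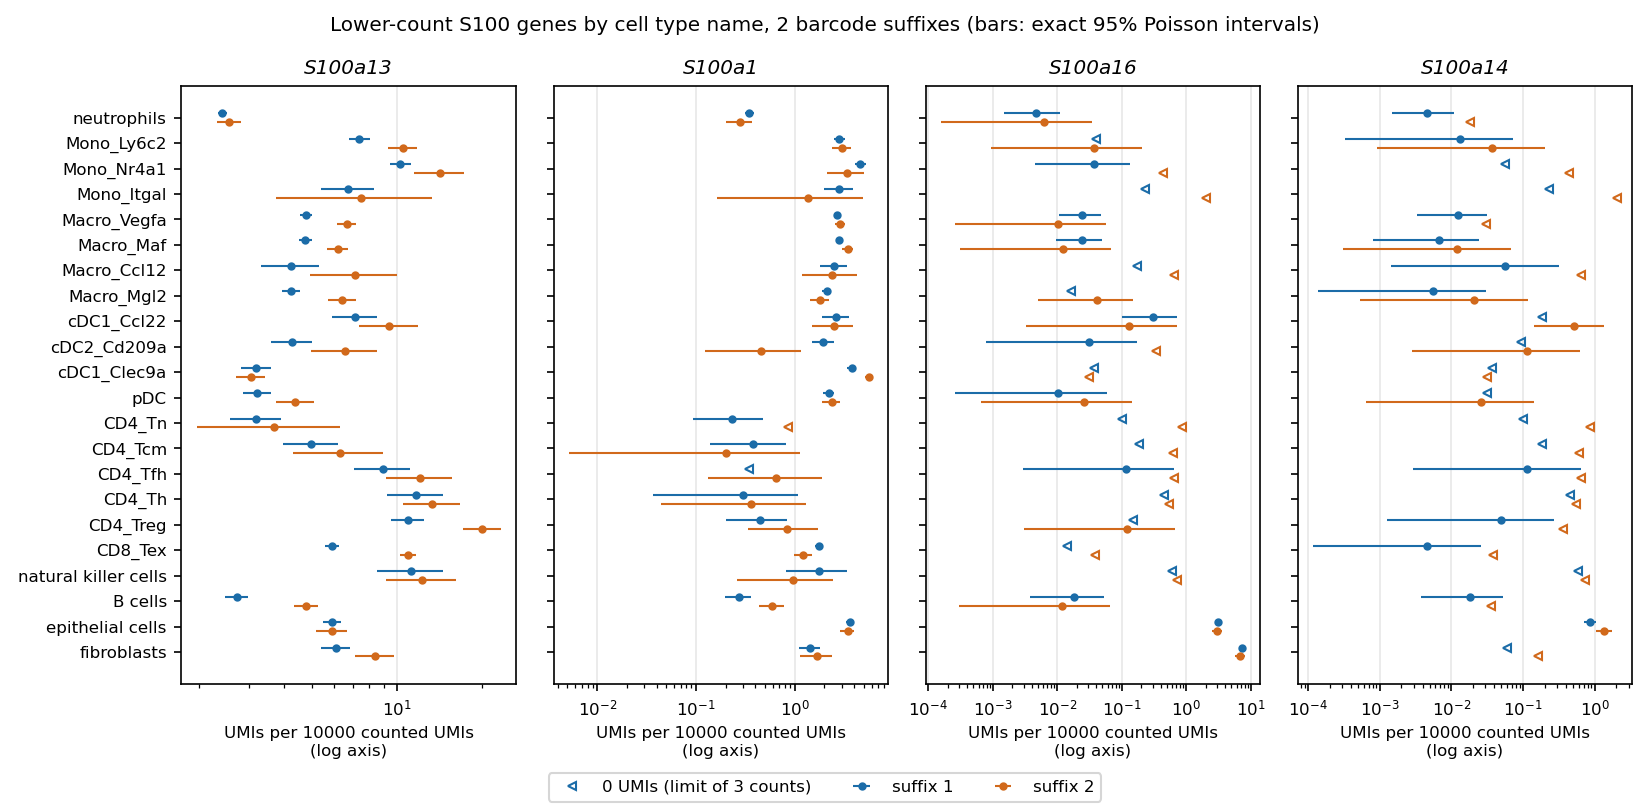
Level of S100a13, S100a1, S100a16 and S100a14 (UMIs per 10000 counted UMIs, log axis) in 22 cell type names of suffix 1 (blue) and suffix 2 (orange), with exact 95% Poisson intervals and, where a name had 0 UMIs, an open triangle at the limit of 3 counts. S100a16 stands at 7.24 in fibroblasts and 3.06 in epithelial cells, far above every other name, and S100a13 lies within a narrow range.

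S100a13 and S100a1, the back-to-back pair, did not follow each other. S100a13 was highest in CD4_Th at 11.7 (9.25 to 14.6), natural killer cells at 11.2 (8.51 to 14.6), CD4_Treg at 10.9 (9.55 to 12.5) and Mono_Nr4a1 at 10.3 (9.47 to 11.2), names whose intervals overlapped. It was lowest in neutrophils at 2.41 and B cells at 2.72. With S100a8 and S100a9 out of the totals, neutrophils were no longer below all other cells. By level, S100a13 had the narrowest span of the 6 well-counted members, and in suffix 2 CD4_Treg led at 20.0. S100a1 was highest in Mono_Nr4a1 at 4.62 (4.07 to 5.23), cDC1_Clec9a at 3.77 and epithelial cells at 3.62 in suffix 1. The macrophage names held it at 2.10 to 2.84 and the CD4 T cell names at 0.444 or less, on at most 9 UMIs each, with none in CD4_Tfh. Mono_Nr4a1 had 4 members higher (3.67% of all genes), S100a4, S100a10, S100a1 and S100a13. With neutrophils left out of the other cells, S100a4 at log2 1.18 was still called, S100a6 at 1.19 and S100a11 at 1.43 were called as well, S100a16 was called lower, and the other 3 were not called. In suffix 2, on 26 cells, S100a11 at 1.12 was the one member called.

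S100a3 had few counts and overlaps other genes. Of its 94 UMIs in suffix 1, 33 came from cDC1_Clec9a, a level of 0.403, and 17 from pDC, a level of 0.177, the 2 names in which S100a4 was also highest. Its annotated span shares 1262 bases with S100a2 and 799 with Gm42674 on the same strand. S100a4 itself shares 2115 bases with Gm42674 on that strand. How the authors' counting treated reads in a shared stretch is not given in the sources used here, so the S100a3 values are uncertain.

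Of the members, 4 formed 2 pairs with like levels over the names. Across the 21 names with 50 or more cells in suffix 1, the log2 levels (with 0.1 added) of S100a6 and S100a11 had a Pearson correlation of 0.95, and those of S100a4 and S100a10 of 0.79. In suffix 2, over 14 names, the values were 0.90 and 0.87. Lower values came from 3 pairs that lie closer on the chromosome than S100a6 and S100a11: 0.33 and 0.25 for S100a4 and S100a6, 0.12 and 0.06 for S100a11 and S100a10, and -0.01 and -0.15 for S100a1 and S100a13. S100a3, S100a14 and S100a16 were too sparse to be correlated, but S100a3 was led by the same 2 names as its neighbour S100a4, and the neighbours S100a14 and S100a16 were both high in epithelial cells. S100a10 and S100a13 stood at 0.64 in both. These are descriptions over names of the same library that share a denominator.

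**Figure D4:**
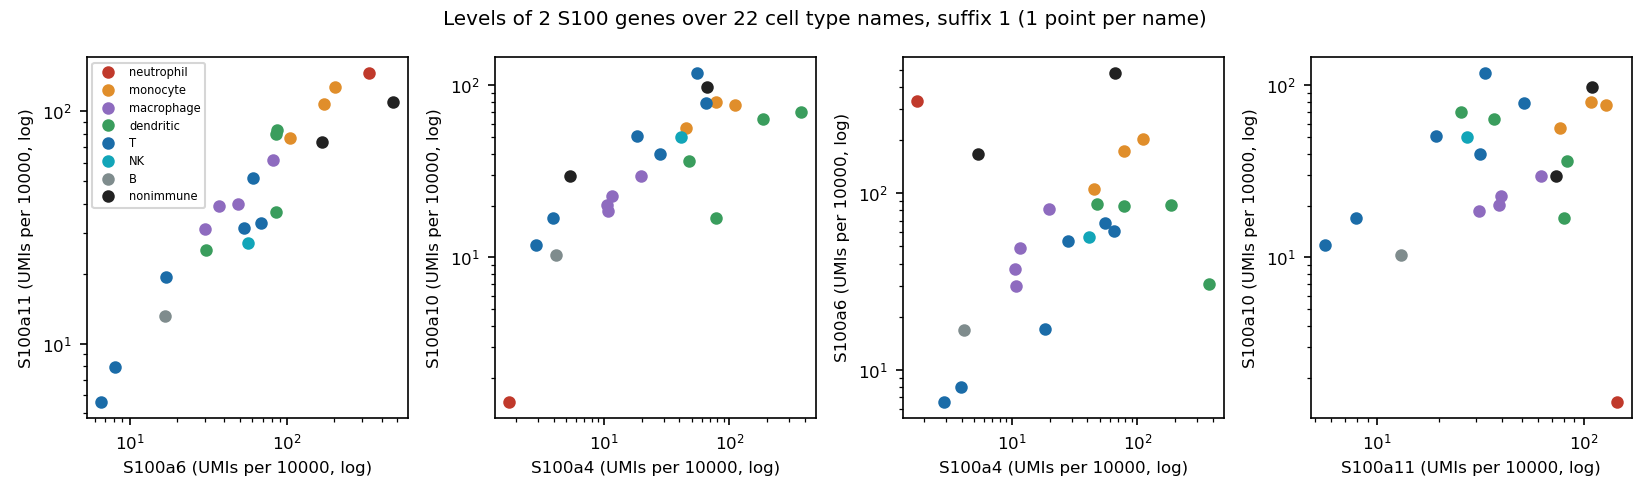
Levels of 4 pairs of S100 genes in suffix 1 (UMIs per 10000 counted UMIs, both axes log), 1 point per cell type name coloured by lineage. S100a6 and S100a11 follow a line that includes the neutrophils (r 0.95 over the 21 names of 50 or more cells), while in the panels of S100a4 against S100a6 and of S100a11 against S100a10 the neutrophil point lies far off the rest.

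The genes outside the family with the closest profile were mostly different from member to member, with Pef1 among the closest 3 of both S100a6 and S100a11. Among 1955 genes with 1000 or more UMIs, those closest to S100a10 were Raph1 (0.87), Capn2 (0.84) and Fkbp1a (0.84), of which 2 were also among the closest 3 in suffix 2. For S100a4 they were Psmb7, 1110008P14Rik and Atp5f1, at 0.77 to 0.79, and for S100a6 Dstn, Pef1 and Slc25a24, at 0.78 to 0.80. For S100a11 they were Cd44 at 0.81, which encodes a hyaluronan receptor, Nadk and Pef1; in suffix 2 Cd44 stood at 0.84 and Pef1 at -0.00. For S100a1 they were Depdc7, Arl8a and Cttnbp2nl, at 0.89 to 0.90, and for S100a13 Stx6, Yipf1 and Smap1, at 0.71 to 0.77. None of these last 5 members shared a closest gene between the suffixes.

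Few of the partner genes were measured. Of 35 known or proposed partners, 7 had rows. Anxa5, an annexin, was highest in epithelial cells at 52.0 against 7.45 in all other cells, log2 2.80, and lowest in neutrophils at 0.859. Cacybp, the calcyclin-binding protein, was highest in B cells at 18.2 and CD4_Tn at 16.4, names low in S100a6, and lowest in neutrophils at 0.709. Il1a was at 27.0 in Mono_Itgal and 18.0 in Macro_Vegfa, and Tlr4, a receptor for secreted S100 proteins, was highest in Mono_Ly6c2 at 3.02. In epithelial cells 1 of the 6 partners with 50 or more UMIs was higher (16.9% of all genes) and 2 lower (12.1%). In neutrophils 0 were higher (2.59%) and 4 lower, near the 73.5% over all genes.

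Other genes with EF-hands, of which 16 of 54 were measured, led in many names. Rcn1 was highest in fibroblasts at 12.3, Sdf4 in CD4_Th at 29.9, Capn2 in Mono_Nr4a1 at 3.93 and Rasgrp1 in CD4_Treg at 4.73. In neutrophils 1 of the 16 was higher (2.59% of all genes) and 8 lower (73.5%), with a median log2 ratio of -1.26 against -2.39 over all genes. In epithelial cells 6 were higher (16.9%) and 2 lower (12.1%), with a median of 0.32 against 0.29. The 16 other genes measured within 250000 bases of a member varied likewise: Ilf2 was highest in epithelial cells at 3.98 and Slc27a3 in cDC1_Ccl22 at 1.83. Of the 15 with 50 or more UMIs, 3 were higher in epithelial cells, near the 16.9% over all genes. In neutrophils 5 were higher (2.59% of all genes), among them S100a8 and S100a9, and 9 lower (73.5%).

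Suffix 2 had more S100a4 than suffix 1 in most names. The 95% interval of the ratio lay above 1 in 17 of 22 names, below 1 in fibroblasts and across 1 in 4. Over all genes, between 5.06% and 20.7% per name lay above 1 (median 9.87%) and between 9.01% and 24.2% below (median 12.55%). Past 2-fold stood CD8_Tex alone, at log2 1.38 (1.32 to 1.43), where 0.386% of all genes did. In C1q-free CD8_Tex cells the ratio was 0.27 (0.17 to 0.37), with levels of 97.4 and 80.8. CD4_Treg was at 0.99, CD4_Th at 0.91 and B cells at 0.65. S100a6 lay above 1 in 14 names and below in 3, with CD4_Th past 2-fold at 1.23 (1.06 to 1.41; 1.18% of all genes), and S100a13 lay above in 12 and below in none, with 10 across 1. S100a10 was above in 12 and below in 4, and S100a11 was above in 7 and below in 6. S100a8 was below 1 in 20 names and S100a9 in 21. These counts compare 2 libraries of unknown group, and suffix 2 has counts for only 26.9% of its annotated cells, so what separates them was not tested.

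**Figure D5:**
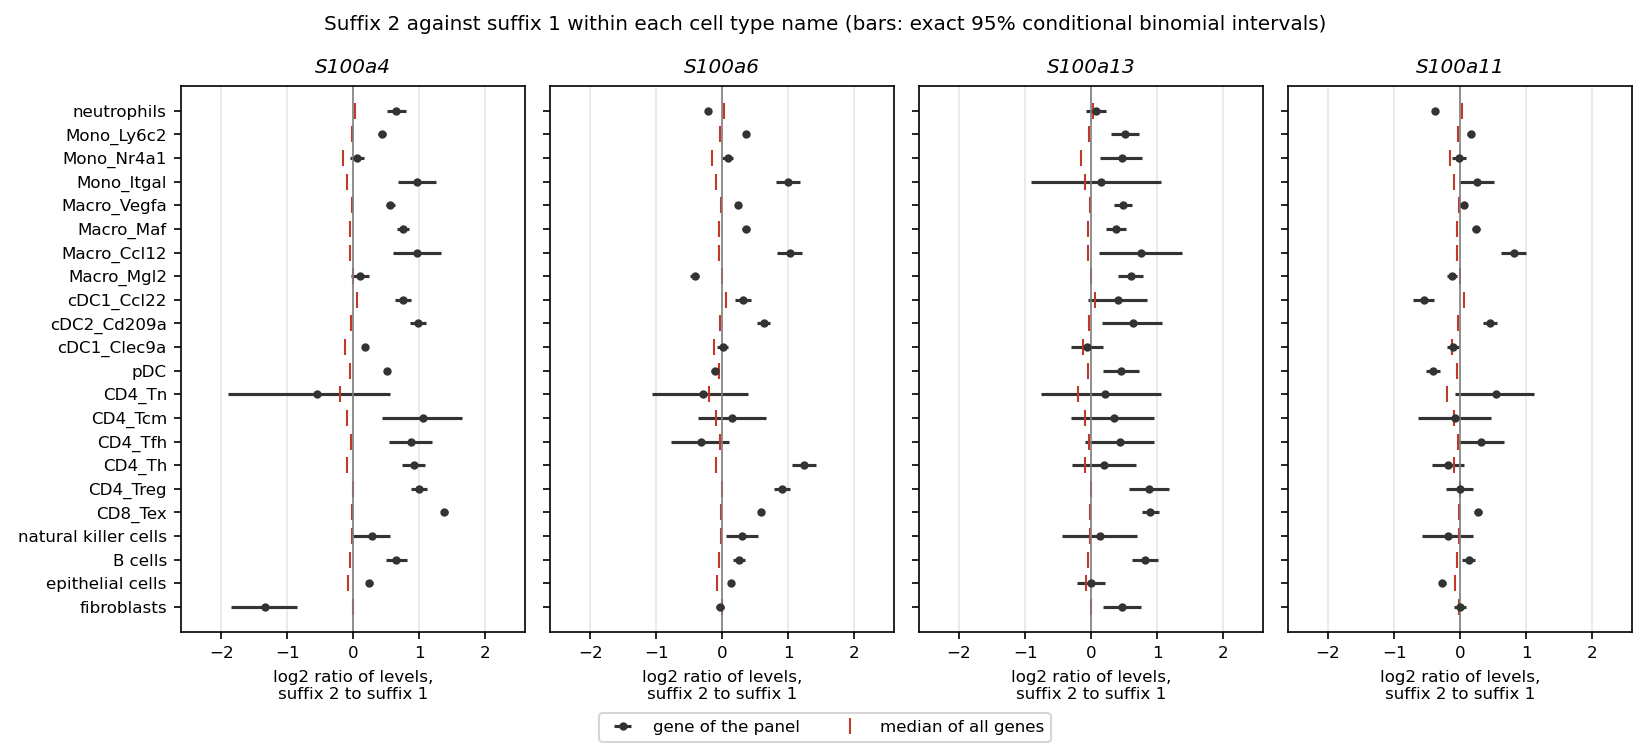
Log2 ratio of the level in suffix 2 to that in suffix 1 for S100a4, S100a6, S100a13 and S100a11 in 22 cell type names (black points, with exact 95% intervals), beside the median ratio of all genes in that name (red ticks). S100a4 lies to the right of 0 in most names, with CD8_Tex at 1.38 and fibroblasts at -1.33.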

How the data were processed

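The authors deposited whole-number UMI counts per gene and cell barcode, with a cell type name for each barcode. The submitters' processing notes name Cell Ranger, Seurat, GRCm38 and mm10; the sources used here give no versions, roles, filters or removal of doublets, and no doublet caller was run. One incomplete gene row was left out. Counts were summed per name and suffix, with exact Poisson intervals for levels, exact conditional binomial intervals for ratios and Clopper-Pearson intervals for shares (95%, scipy 1.17.1, numpy 2.4.6, pandas 2.3.3, Python 3.11.15). A ratio was called past 2-fold with 50 or more UMIs over both sides. A count of 0 was set to 3 counts in a ratio. Cells are not replicates, so no test and no p-value is given, and intervals cover counting error only. Shares used cells thinned to 500 UMIs, leaving out shallower cells. The 9 genes were named by symbol; near genes were the 3 with the highest correlation among those with 1000 or more UMIs. Members, pairs of names and lists were chosen with earlier results of these data known. Ratios and intervals were run on simulated Poisson counts, the model that the intervals assume. The simulation had no spread between cells and no free RNA, so it checks the calculation only. Gene positions are from GENCODE, promoters from RefSeq. Results for 1 of the 23 names are not reported here; its cells stay among all other cells, and highest or lowest means among the 22 names.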

Additional observations from a re-analysis of the deposited data

How the results depend on the processing

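No paired analysis was possible because no label ties a barcode suffix to a sample, and for the same reason the planned comparisons of CON with sgMif were not run. Levels lay outside their suffix 1 interval in suffix 2 for S100a4 in cDC1_Clec9a (422), S100a6 in epithelial cells (522) and neutrophils (286), S100a10 in CD4_Treg (127), S100a11 in neutrophils (112), S100a1 in Mono_Nr4a1 (3.36, with a suffix 2 interval that holds the suffix 1 level) and S100a14 in epithelial cells (1.36). With S100a8 and S100a9 taken out of the total, S100a6 was at 486 in epithelial cells and 801 in neutrophils and S100a11 at 351 in neutrophils; in cells of 500 or more UMIs these 3 were 471, 337 and 147. The 29 ratios called higher than all other cells became 19 with calprotectin taken out, 15 in suffix 2 and 16 with neutrophils left out of the other cells. The 5 members lower between pairs of names became 12 in UMIs per cell, 6 of them in Macro_Ccl12 against Macro_Maf. Macro_Ccl12 cells were shallow and most genes were lower per cell in them, so these 6 calls hold little for the members. No share over all genes is given for UMIs per cell. Direction turned for S100a13 in neutrophils (log2 0.14) with calprotectin taken out. It also turned in UMIs per cell for S100a4 (0.16) and S100a11 (0.59) in Macro_Mgl2 and S100a6 (0.28) and S100a11 (0.14) in pDC, and in suffix 2 for S100a11 in Macro_Ccl12 (0.23), S100a6 in CD4_Th (0.10) and S100a4 in epithelial cells (-0.17). The cause was not tested beyond the change of denominator or library itself. Depth limits S100a3, S100a14 and S100a16 in most names.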
